A study of Mus musculus with 24 samples.

Results

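The 10 genes described here mark newborn neurons and the precursors of cerebellar granule neurons: Atoh1, Nhlh1, Igfbpl1, Dcx, Sox4, Sox11, Tubb2b, Marcksl1, Mex3b and Neurod1. They were chosen by name, from 50686 genes counted, and all 10 were among the 21657 genes tested. RNA was measured by stranded mRNA sequencing of a tissue piece that the labels call back left brain, from C57BL/6 mice. The double knockout group (dKO) was Pank1-/-Syn-Pank2-/-, and the other group was wild type (WT), both on that background. Pank1 and Pank2 encode pantothenate kinases, which start the synthesis of coenzyme A, and the series models a neurodegeneration linked to that enzyme. What Syn stands for, the parts of the genes that were deleted and any pooling of animals are not stated in the labels. Each genotype was taken at day 20 and at day 10 (the labels do not say from when days were counted), with 3 female and 3 male libraries per genotype and day. One library, dKO male day 10 replicate 3, held 45964 gene counts and was not used, so 23 of 24 libraries entered, with 5 for dKO at day 10 and 6 for each other genotype and day. The labels do not say whether libraries of 1 group came from separate animals, so the p-values measure the spread between these libraries.

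The outer layer of the early postnatal cerebellum is a sheet of dividing granule precursors, which leave the cycle, put out processes and move inward to become granule neurons. Atoh1 is the basic helix-loop-helix (bHLH) factor that defines the dividing precursors, and Nhlh1 and Neurod1 are bHLH factors of cells on their way out of division, Neurod1 also being kept in mature granule neurons. Sox4 and Sox11 are SoxC transcription factors that turn on pan-neuronal genes in newborn neurons, while Dcx and Tubb2b are a microtubule-binding protein and a beta-tubulin of migrating and growing neurons. Marcksl1 is an actin-binding protein of the MARCKS family, Mex3b an RNA-binding protein, and Igfbpl1 a secreted IGF-binding-protein-like factor found in newborn neurons.

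Gene counts per library ran over 15.9 to 27.3 M for dKO and 18.7 to 42.5 M for WT at day 20. At day 10 they ran over 10.8 to 20.0 M for dKO and 9.19 to 44.7 M for WT. Levels below are counts per M (CPM) scaled by TMM, and positions are GENCODE M21 on GRCm38. Pank1 read 6.71 to 8.87 CPM in dKO libraries, against 19.5 to 26.7 CPM in WT libraries, over both days. Pank2 read 38.5 to 46.3 CPM in dKO and 52.6 to 61.3 CPM in WT at day 20, and 44.6 to 52.1 CPM in dKO and 46.3 to 56.3 CPM in WT at day 10. Gabra6, a receptor subunit of cerebellar granule neurons, was at 10.4 to 373 CPM over the 23 libraries. Tissue markers were uneven among the day 10 libraries. Gabra6 was at 10.4 CPM in dKO female day 10 replicate 2 and 30.5 CPM in dKO male day 10 replicate 2. Hoxa5 was at 33.2 CPM in dKO female day 10 replicate 2 and 0.0901 CPM in WT male day 10 replicate 1. Lowest in the hindbrain sum and in Ttr was dKO male day 10 replicate 2. Its 13 hindbrain genes (Hox genes, En1 and En2) summed to 30.8 CPM with 9 of them at 0, against 80.6 to 132 CPM in the other day 10 libraries, and Ttr, the main choroid plexus transcript, was at 1.90 CPM against 232 to 579 CPM. The members' changes with day, their day 10 differences and the list counts over time are therefore also given without it. That leaves dKO male day 10 replicate 1 as the only dKO male library of that day, taken to vary like the others.

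Promoter windows from RefSeq (GRCm38.p6, 250 bases before to 50 after the annotated start) were found for 8 of the 10 genes, all but Igfbpl1 and Tubb2b. Since bHLH factors bind E-boxes and SoxC factors bind a short AT-rich core, the windows were searched on both strands for the E-boxes CAGCTG and CAGATG and for the Sox core ACAATG. The first of these was in 2 of 8 genes (Sox4 and Sox11), against 16.3% of 32851 mouse windows, CAGATG was in 1 of 8 (Nhlh1), against 17.2%, and ACAATG was in 1 of 8 (Mex3b, 2 matches), against 12.6%. The 3 windows with an E-box, those of both SoxC genes and of the bHLH gene Nhlh1, are shown with the E-box in capitals, and the window of Atoh1 held neither E-box. In the windows printed no motif overlapped another. The CAGCTG of Sox4 began at position -211 and that of Sox11 at position -210 from the start, and the CAGATG of Nhlh1 at position -203. A match describes the letters in the window and no more.
Sox4, chr13:28953650-28953949, minus strand: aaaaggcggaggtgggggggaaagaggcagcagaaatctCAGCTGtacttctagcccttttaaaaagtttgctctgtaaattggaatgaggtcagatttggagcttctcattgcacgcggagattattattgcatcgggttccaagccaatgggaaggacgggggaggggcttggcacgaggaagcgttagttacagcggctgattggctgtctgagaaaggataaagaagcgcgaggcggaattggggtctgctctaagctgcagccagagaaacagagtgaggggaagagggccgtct
Sox11, chr12:27342669-27342968, minus strand: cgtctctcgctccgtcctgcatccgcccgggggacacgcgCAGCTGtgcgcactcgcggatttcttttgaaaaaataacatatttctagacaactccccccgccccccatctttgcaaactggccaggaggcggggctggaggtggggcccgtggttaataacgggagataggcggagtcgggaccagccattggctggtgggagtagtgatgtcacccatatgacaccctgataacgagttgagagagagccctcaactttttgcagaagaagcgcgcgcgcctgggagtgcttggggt
Nhlh1, chr1:172057547-172057846, minus strand: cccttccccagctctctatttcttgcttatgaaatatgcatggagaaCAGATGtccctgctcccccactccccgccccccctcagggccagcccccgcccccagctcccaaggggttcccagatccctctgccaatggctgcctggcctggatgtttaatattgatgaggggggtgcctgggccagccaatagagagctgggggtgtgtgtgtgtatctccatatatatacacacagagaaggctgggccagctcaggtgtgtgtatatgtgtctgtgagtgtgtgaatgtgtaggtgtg

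At day 20 against day 10, 9 of the 10 genes fell in dKO and in WT tissue, by edgeR's quasi-likelihood test with Benjamini-Hochberg adjustment over all genes tested. Across all genes, 61.6% were called in dKO (31.2% lower, 30.4% higher) and 50.4% in WT (24.9% lower, 25.5% higher). The median log2 change of the 10 genes was -2.99 in dKO and -2.89 in WT, against -0.01 in dKO and 0.01 in WT over all genes. The genes with the steepest falls were the precursor and newborn-neuron genes Igfbpl1, Atoh1 and Nhlh1, and Neurod1 was the one that did not pass the test. With dKO male day 10 replicate 2 left out, the log2 changes in dKO were -6.49 for Igfbpl1, -6.19 for Atoh1, -5.44 for Nhlh1, -3.78 for Tubb2b, -3.66 for Sox11, -2.88 for Dcx, -2.20 for Sox4, -2.07 for Marcksl1 and -2.03 for Mex3b, all 9 called. The median of the 10 was then -3.27 in dKO and -2.91 in WT, where 55.3% of all genes were called in dKO and 50.3% in WT. In whole tissue, fewer cells of a type and less RNA per cell cannot be told apart.

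**Figure D1:**
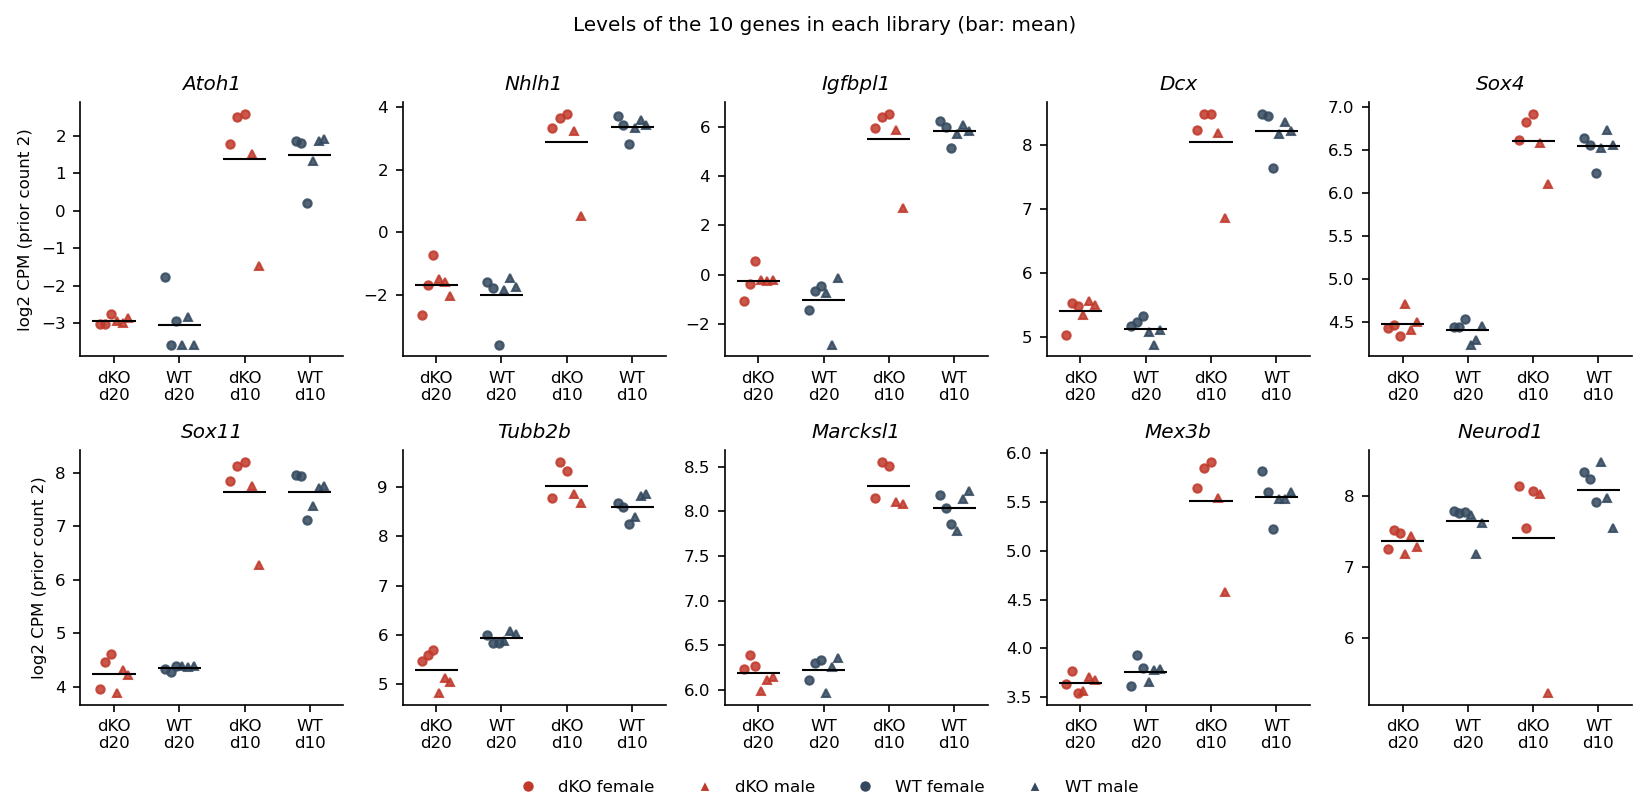
Log2 CPM (prior count 2) of each of the 10 genes in each of the 23 libraries, by genotype and day, with circles for females, triangles for males and bars for means. Each of the 9 genes that fell was lower in every day 20 library than in every day 10 library, while Neurod1 overlapped between the days. The share of all genes that separated so between the days was not counted.

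Atoh1 (ENSMUSG00000073043, chr6:64729125-64731245, plus strand) had 0.0388 to 0.0658 CPM in the 6 dKO libraries of day 20 (median 0.0435), against 3.37, 5.55, 5.94, 2.78 and 0.279 CPM in the 5 dKO libraries of day 10. In WT it had 0 to 0.208 CPM at day 20 (median 0.0231), against 1.06 to 3.71 CPM at day 10 (median 3.50). The days did not overlap in either genotype. The log2 change was -5.75 ± 0.68 (SE) in dKO (adjusted p = 5.34e-07) and -6.19 ± 0.65 in WT (adjusted p = 1.54e-07). At day 20 there were 6 Atoh1 counts over the 6 dKO libraries and 7 over the 6 WT libraries.

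Nhlh1 (ENSMUSG00000051251, chr1:172052292-172057573, minus strand) had 0.0777 to 0.527 CPM in dKO at day 20 (median 0.242), against 9.84, 12.5, 13.6, 9.23 and 1.34 CPM in dKO at day 10. Its WT levels were 0 to 0.281 CPM at day 20 (median 0.212), against 6.97 to 12.9 CPM at day 10 (median 10.6). Every day 20 library of both genotypes lay below every day 10 library. The log2 change was -5.03 ± 0.47 in dKO (adjusted p = 3.69e-08) and -5.76 ± 0.44 in WT (adjusted p = 6.08e-09).

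Igfbpl1 (ENSMUSG00000035551, chr4:45809468-45826923, minus strand) had the steepest estimated fall of the 10 genes. Its 95% intervals overlapped those of Atoh1 and Nhlh1 in both genotypes, so their order is not settled. Igfbpl1 had 0.389 to 1.38 CPM in dKO at day 20 (median 0.760), against 61.8, 83.0, 91.6, 58.6 and 6.36 CPM in dKO at day 10. In WT it had 0.0561 to 0.824 CPM at day 20 (median 0.531), against 34.8 to 74.3 CPM at day 10 (median 59.7). The day 20 mean was 1.32% of the day 10 mean in dKO (1.08% without dKO male day 10 replicate 2) and 0.829% in WT, and at day 20 Igfbpl1 had 98 counts over the 6 dKO libraries and 79 over the 6 WT libraries. The log2 change was -6.06 ± 0.53 in dKO (adjusted p = 6.03e-08) and -6.83 ± 0.54 in WT (adjusted p = 2.71e-08).

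The SoxC genes differed in the depth of their fall. Sox11 (ENSMUSG00000063632, chr12:27334264-27342574, minus strand) had 14.7 to 24.4 CPM in dKO at day 20 (median 19.3), against 231, 279, 294, 215 and 77.5 CPM in dKO at day 10, with 19.4 to 20.9 CPM (median 20.7) in WT at day 20 and 139 to 248 CPM (median 212) in WT at day 10. Sox4 (ENSMUSG00000076431, chr13:28948919-28953713, minus strand) had 20.3 to 26.1 CPM in dKO at day 20 (median 21.8), against 97.99, 113, 121, 95.1 and 68.5 CPM in dKO at day 10, with 18.8 to 23.2 CPM (median 21.8) in WT at day 20 and 75.0 to 106 CPM (median 94.2) in WT at day 10. Sox11 thus kept 8.76% of its day 10 mean in dKO and 10.0% in WT, while Sox4 kept 22.5% in dKO and 22.7% in WT. With dKO male day 10 replicate 2 left out, the dKO shares were 7.54% for Sox11 and 20.9% for Sox4. The log2 changes were -3.38 ± 0.23 in dKO and -3.31 ± 0.22 in WT for Sox11 and -2.09 ± 0.09 in dKO and -2.14 ± 0.09 in WT for Sox4, with adjusted p from 4.77e-14 to 3.34e-09. Per kb of exon, Sox4 was the higher of the pair in the mean at day 20 (4.65 against 2.31 CPM per kb in dKO, 4.42 against 2.46 in WT), whereas at day 10 Sox4 and Sox11 stood at like levels (20.7 and 26.4 CPM per kb in dKO, 19.5 and 24.5 in WT). Sox4 overlaps the opposite-strand gene Gm26735, and strand-specific counts were used.

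Among the cytoskeletal genes, Dcx (ENSMUSG00000031285, chrX:143855842-143933311, minus strand) had 32.7 to 47.1 CPM in dKO at day 20 (median 45.0), against 298, 354, 357, 291 and 116 CPM in dKO at day 10. In WT it had 29.4 to 40.3 CPM at day 20 (median 35.2), against 200 to 356 CPM at day 10 (median 311). The log2 change was -2.61 ± 0.20 in dKO (adjusted p = 7.17e-09) and -3.10 ± 0.20 in WT (adjusted p = 1.54e-09). Marcksl1 (ENSMUSG00000047945, chr4:129513581-129515985, plus strand) had the shallower fall of the pair: 63.1 to 84.0 CPM in dKO at day 20 (median 72.9), against 284, 375, 364, 275 and 270 CPM in dKO at day 10, with 62.4 to 82.0 CPM (median 77.4) in WT at day 20 and 219 to 299 CPM (median 272) in WT at day 10. Its log2 change was -2.06 ± 0.09 in dKO (adjusted p = 2.35e-13) and -1.82 ± 0.09 in WT (adjusted p = 3.73e-12).

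Tubb2b (ENSMUSG00000045136, chr13:34126748-34130466, minus strand) was the member whose course over time differed between the genotypes. It had 27.9 to 51.1 CPM in dKO at day 20 (median 39.1), against 438, 735, 648, 467 and 414 CPM in dKO at day 10. In WT it had 56.6 to 67.3 CPM at day 20 (median 60.9), against 306 to 467 CPM at day 10 (median 399). The day 20 mean was 7.34% of the day 10 mean in dKO (6.93% without dKO male day 10 replicate 2) and 15.5% in WT. The log2 change was -3.73 ± 0.13 in dKO (adjusted p = 6.21e-14) and -2.68 ± 0.12 in WT (adjusted p = 7.11e-12). Tubb2b and its paralog Tubb2a are nearly identical in their coding sequence, so reads could be lost or divided between them.

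The RNA-binding gene Mex3b (ENSMUSG00000057706, chr7:82867333-82871515, plus strand) had 11.6 to 13.6 CPM in dKO at day 20 (median 12.5), against 49.8, 57.6, 59.99, 46.5 and 23.8 CPM in dKO at day 10. In WT it had 12.2 to 15.2 CPM at day 20 (median 13.7), against 37.1 to 56.3 CPM at day 10 (median 47.2). The log2 change was -1.82 ± 0.13 in dKO (adjusted p = 6.18e-10) and -1.80 ± 0.13 in WT (adjusted p = 7.23e-10).

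Neurod1 (ENSMUSG00000034701, chr2:79452521-79456751, minus strand), which mature granule neurons also express, had 145 to 182 CPM in dKO at day 20 (median 164), against 280, 186, 268, 260 and 37.2 CPM in dKO at day 10. In WT it had 144 to 219 CPM at day 20 (median 214), against 186 to 356 CPM at day 10 (median 276). The days overlapped in both genotypes, and the log2 change was -0.22 (95% interval -0.90 to 0.47, adjusted p = 0.583) in dKO and -0.46 (-1.11 to 0.18, adjusted p = 0.224) in WT. Without dKO male day 10 replicate 2 the log2 change of Neurod1 was -0.62 ± 0.18 in dKO (adjusted p = 0.00775) and -0.48 ± 0.15 in WT (adjusted p = 0.0133), and all 10 genes were then called lower at day 20 in both genotypes. The share of its day 10 mean that remained at day 20 was 79.8% in dKO (66.2% without that library) and 72.8% in WT, above that of every other member. Neurod1 overlaps Cerkl on the same strand and Gm26755 on the other, so some reads of Cerkl and Neurod1 could not be assigned.

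**Figure D2:**
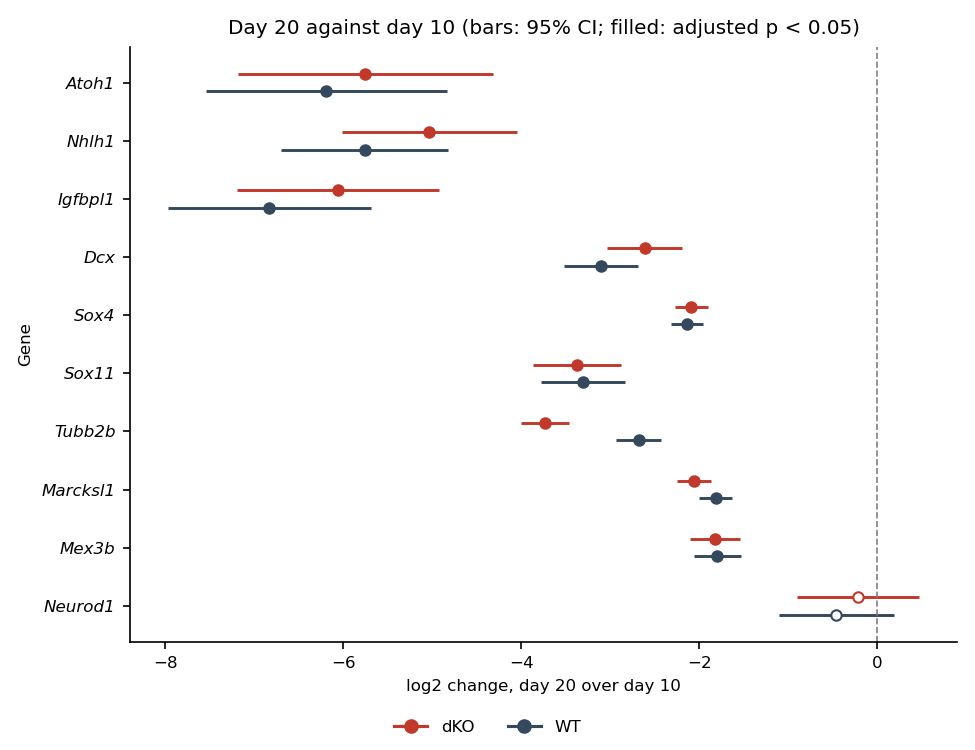
Log2 change of day 20 over day 10 for each gene in dKO and WT, with 95% confidence intervals and filled points for an adjusted p under 0.05. Igfbpl1 (-6.06 in dKO, -6.83 in WT) is at the steep end, Neurod1 (-0.22 and -0.46) is near 0 with open points, and the Tubb2b intervals of dKO and WT do not meet.

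The order of the genes also changed with day. Per kb of exon, Neurod1 was highest at day 20 (60.3 CPM per kb in dKO, 73.6 in WT), then Marcksl1 (45.6 in dKO, 46.6 in WT) and Tubb2b (17.3 in dKO, 26.6 in WT), and Igfbpl1, Nhlh1 and Atoh1 were lowest, at 0.244 or less. At day 10 Tubb2b was the highest member (236 in dKO, 171 in WT), followed by Marcksl1 (195 in dKO, 164 in WT) and Neurod1 (75.6 in dKO, 101 in WT), with Nhlh1 (3.78 in dKO, 4.24 in WT) and Atoh1 (1.69 in dKO, 1.398 in WT) lowest. The WT levels of Tubb2b and Marcksl1 at day 10 (SD 27.8 and 20.2, n = 6) did not differ beyond their spread. Sox11, Dcx, Sox4 and Igfbpl1 stood close together at day 10 (18.5 to 26.4 in dKO, 17.8 to 24.5 in WT), within 1 SD of their neighbours in dKO. The dKO levels per kb at day 10 without dKO male day 10 replicate 2 were 249 for Tubb2b, 202 for Marcksl1, 91.1 for Neurod1, 30.7 for Sox11, 25.7 for Dcx, 22.7 for Igfbpl1, 22.2 for Sox4, 15.9 for Mex3b, 4.58 for Nhlh1 and 2.08 for Atoh1.

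At day 20, Tubb2b was lower in dKO than in WT tissue, and no other member passed the test. Of all genes, 38% were called at that day (19.2% lower, 18.8% higher), against 1 of 10 members. Among members, the median log2 difference was 0.02, against 0.00 over all genes. Tubb2b had 43.9, 47.8 and 51.1 CPM in dKO females and 27.9, 34.4 and 32.8 CPM in dKO males, against 63.4, 56.6 and 56.6 CPM in WT females and 58.3, 67.3 and 64.5 CPM in WT males. All 6 dKO libraries lay below all 6 WT libraries, as they did for 10.3% of genes tested (20.1% did not overlap, 9.79% with dKO above), and dKO males lay below dKO females. The Tubb2b log2 difference was -0.65 ± 0.12 (95% interval -0.90 to -0.41, adjusted p = 0.000241), that is 63.6% of the WT level.

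The sexes gave different sizes of that difference. In males the Tubb2b log2 difference was -0.997 ± 0.167 (adjusted p = 0.000157, where 34.6% of genes were called, 17.3% in each direction), and in females it was -0.31 ± 0.16 (95% interval -0.65 to 0.04, adjusted p = 0.255, where 10.4% were called, 5.18% lower and 5.17% higher). The difference between the sexes itself, -0.69 ± 0.23, did not pass (adjusted p = 0.181), and 0% of genes did in that contrast, though 3220 had an unadjusted p under 0.05. When only the day 20 groups were fitted, it passed (adjusted p = 0.00434), as did the female difference (adjusted p = 0.00503). Such fits also called more of all genes in both contrasts, with the counts given below.

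Dcx and Neurod1 were next in line at day 20. Dcx had 32.7 to 47.1 CPM in dKO and 29.4 to 40.3 CPM in WT, and 5 of the 6 dKO libraries lay above every WT library. The log2 difference was 0.28 (95% interval -0.12 to 0.68, adjusted p = 0.269). Neurod1 had 145 to 182 CPM in dKO and 144 to 219 CPM in WT, with no dKO library above the WT median of 214, and its log2 difference was -0.28 (-0.93 to 0.36, adjusted p = 0.503). Both passed when only the day 20 groups were fitted (Dcx 0.28, adjusted p = 0.00418, and Neurod1 -0.28, adjusted p = 0.0176), a setting in which Atoh1 and Nhlh1 did not pass the filter on low counts. The share of all genes called over both sexes in that setting is not given here, so the calls cannot be set against it.

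For the other 7 genes the groups overlapped at day 20. The intervals were narrow for Sox4 (log2 difference 0.08, 95% interval -0.10 to 0.26), Marcksl1 (-0.03, -0.21 to 0.15) and Mex3b (-0.11, -0.38 to 0.16), which leaves room for differences up to those bounds. Sox11 gave -0.10 (-0.57 to 0.37), with dKO libraries spread over 14.7 to 24.4 CPM and WT libraries within 19.4 to 20.9 CPM. Nhlh1 (0.34, -1.28 to 1.97), Igfbpl1 (0.58, -1.35 to 2.51) and Atoh1 (0.38, -2.16 to 2.92) had wide intervals. In all 6 libraries of a group there were 31 Nhlh1 counts in dKO and 30 in WT, beside the counts of Atoh1 and Igfbpl1 given above.

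**Figure D3:**
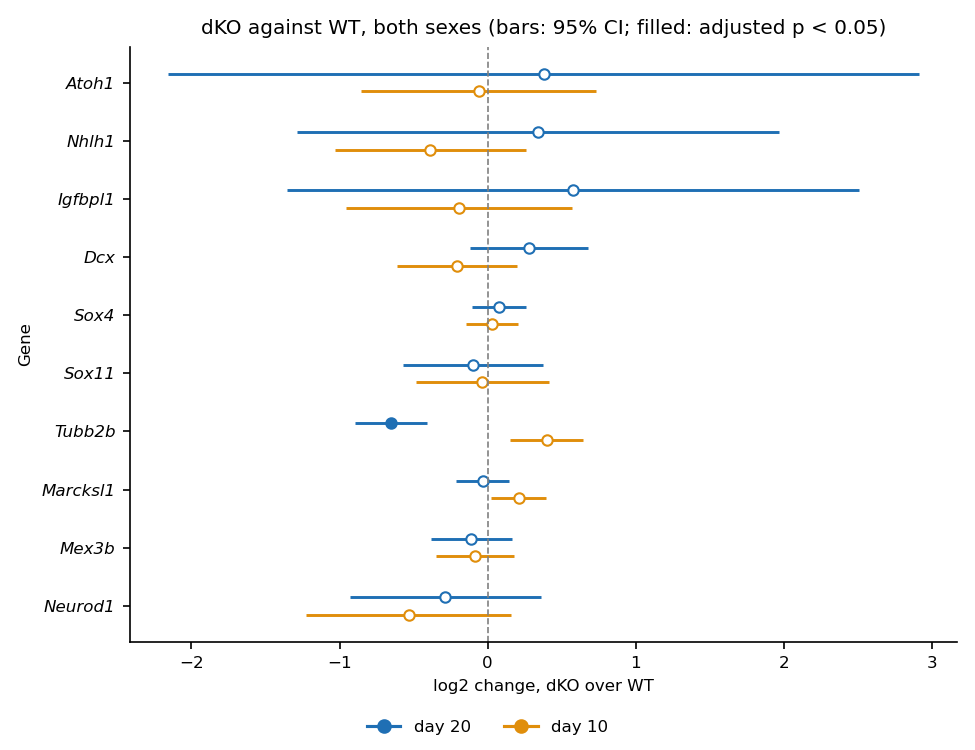
Log2 difference of dKO over WT for each gene at day 20 and day 10, both sexes, with 95% confidence intervals and filled points for an adjusted p under 0.05. Tubb2b at day 20 (-0.65) is the filled point, and at day 10 its estimate (0.40) is on the other side of 0.

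At day 10, no member passed the test between dKO and WT, where 4.99% of genes were called over both sexes (3.23% higher, 1.76% lower). The unadjusted p was under 0.05 for Tubb2b (0.00325) and Marcksl1 (0.0292). DESeq2 called 1 member, Tubb2b. Tubb2b had 438, 735 and 648 CPM in dKO females and 467 and 414 CPM in dKO males, against 409, 389 and 306 CPM in WT females and 335, 453 and 467 CPM in WT males. Its log2 difference was 0.40 ± 0.12 (95% interval 0.15 to 0.64, adjusted p = 0.0564), and 2 of 5 dKO libraries lay clearly above every WT library (1.99% of genes did not overlap at this day, 1.04% with dKO above and 0.947% with dKO below). It passed with DESeq2 and when genes under a mean of 1 CPM were left out, and without dKO male day 10 replicate 2 it was 0.43 (adjusted p = 0.300), when Marcksl1 was 0.20 (adjusted p = 0.463). Marcksl1 gave 0.21 (0.02 to 0.40, adjusted p = 0.152).

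One library set the direction of 5 members at day 10. This library, dKO male day 10 replicate 2, was the lowest of the 11 day 10 libraries for 8 of the 10 genes, with 9.41% of the WT mean for Atoh1, 10.98% for Igfbpl1, 12.8% for Nhlh1, 13.5% for Neurod1, 38.2% for Dcx and 38.1% for Sox11. Its Tubb2b (105%) and Marcksl1 (102%) were near the WT mean. At the other end, dKO female day 10 replicate 3 was the highest of the 11 for 7 genes and dKO female day 10 replicate 2 for 2.

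The tissue markers of the same libraries moved too. In dKO male day 10 replicate 2 the summed CPM of the 24 granule precursor and hedgehog genes was 776, against 1910 to 2570 in the other day 10 libraries, and that of the 24 proliferation genes was 253, against 423 to 1242. The library dKO female day 10 replicate 2 had the sums furthest the other way for proliferation (1242), forebrain genes (195, against 140.5 to 162) and hindbrain genes (132), with Gabra6 at 10.4 CPM, against 63.7 to 269 CPM in WT. In dKO female day 10 replicate 3 Gabra6 was at 51.8 CPM and the proliferation sum was 1146. The part of these differences in tissue makeup in the members' levels was not tested.

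**Figure D4:**
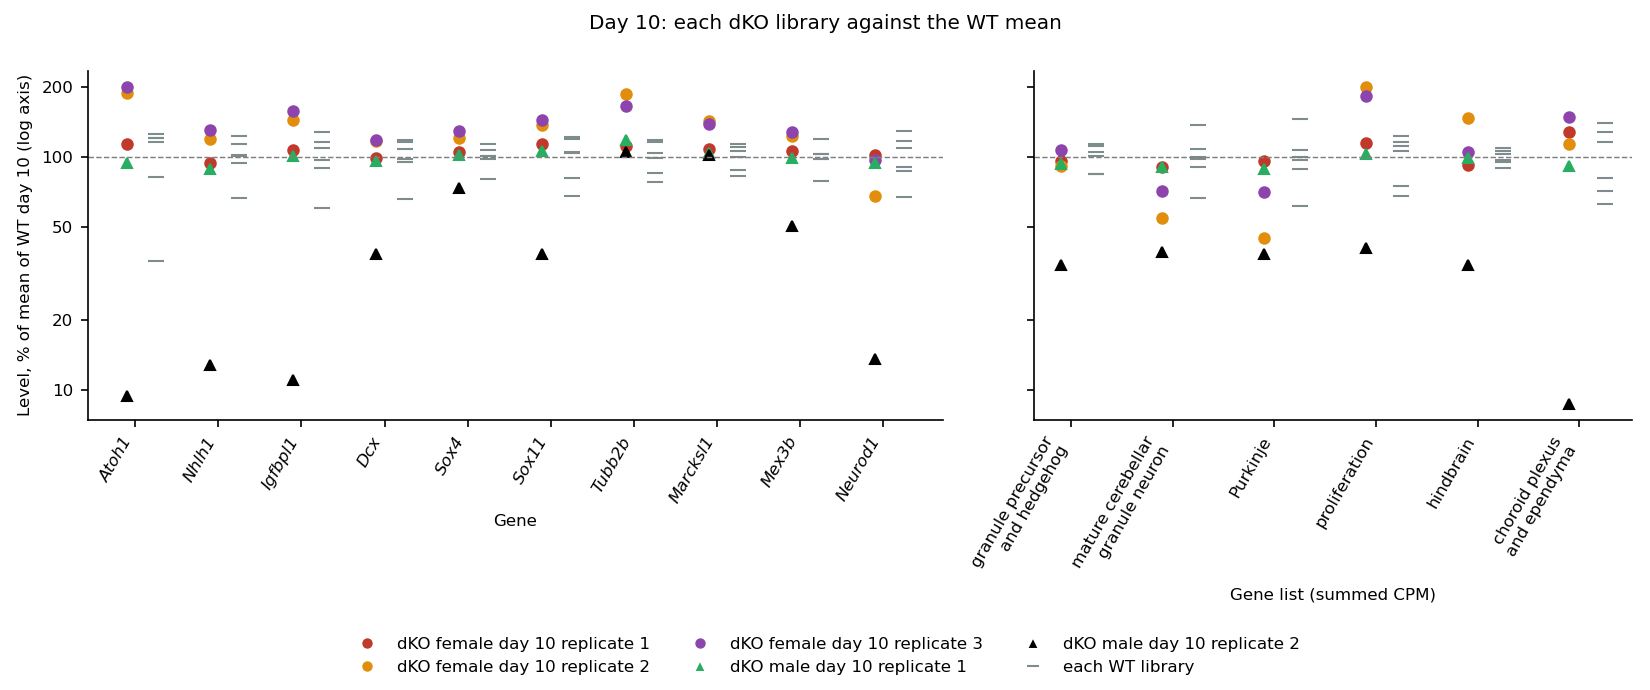
Level of each gene (left) and summed CPM of 6 marker lists (right) in each dKO library of day 10, as a percent of the mean of the 6 WT libraries of day 10 (log axis), with grey bars for each WT library. The library dKO male day 10 replicate 2 (black) lies at 9.41% for Atoh1 and near 100% for Tubb2b and Marcksl1, and is low in the precursor, hindbrain and choroid plexus sums.

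With that library left out, dKO males at day 10 rested on replicate 1 alone, which was taken to vary like the others. Without dKO male day 10 replicate 2, the day 10 log2 difference was positive for Atoh1 (0.36, 95% interval -0.30 to 1.02), Igfbpl1 (0.22, -0.24 to 0.68), Dcx (0.04, -0.28 to 0.35), Sox11 (0.23, -0.12 to 0.58) and Mex3b (0.10, -0.09 to 0.30), and was 0.00 for Nhlh1 (-0.40 to 0.40). With it, the values were -0.06 (-0.85 to 0.73) for Atoh1, -0.19 (-0.95 to 0.57) for Igfbpl1, -0.21 (-0.61 to 0.20) for Dcx, -0.04 (-0.48 to 0.41) for Sox11, -0.08 (-0.35 to 0.18) for Mex3b and -0.39 (-1.03 to 0.26) for Nhlh1. Sox4 (0.12 without it, 0.03 with it, -0.15 to 0.20) and Neurod1 (-0.14 without it, -0.53 with it, -1.23 to 0.16) had the same sign in both fits. None of these passed the test in either fit, and over all genes 15 (0.0666%) were called at day 10 without it, against 1081 with it. For Atoh1, Igfbpl1, Sox11 and Mex3b the mean CPM was higher in dKO (3.58 ± 2.29 against 2.97 ± 1.04 CPM for Atoh1, SD, n = 5 and 6) while the fitted log2 difference, which weighs the sexes equally, was negative.

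By sex at day 10, no member passed in females, where 0.319% of genes were called (0.143% higher, 0.175% lower), or in males, where 0.0139% were (0.00923% higher, 0.00462% lower). In females 9 of 10 log2 differences were positive, from 0.16 for Dcx to 0.92 for Atoh1, and Tubb2b was 0.72 ± 0.16 (adjusted p = 0.0518). Without dKO male day 10 replicate 2 the female Tubb2b difference was 0.69. In males only 2 dKO libraries entered, and 8 of 10 log2 differences were negative (6 of 10 without dKO male day 10 replicate 2). Without dKO male day 10 replicate 1, the low library alone was left for dKO males and was taken to vary like the others. The calls of that fit enter only the ranges over left-out libraries given below.

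The difference between the days in the effect of genotype was called for Tubb2b, against 28.3% of all genes (14.7% lower, 13.6% higher). It was -1.05 ± 0.17 (95% interval -1.40 to -0.70, adjusted p = 0.000177), the day 20 difference being -0.65 and the day 10 difference 0.40. Without dKO male day 10 replicate 2 it was -1.08 ± 0.18, but Tubb2b in that library was near the WT mean (105%). At day 10 Tubb2b was 187% and 165% of the WT mean in dKO female replicates 2 and 3, against 105% to 119% in the other dKO libraries. Gabra6 was at 10.4 and 51.8 CPM in those females, and also low (30.5 CPM) in dKO male replicate 2. The part of tissue makeup in the Tubb2b difference between the days was not tested. The other 9 did not pass, with Dcx (0.49, -0.08 to 1.06, adjusted p = 0.189) and Marcksl1 (-0.24, -0.50 to 0.02, adjusted p = 0.152) nearest. The fit without dKO male day 10 replicate 1 rested on the low library alone for dKO males at day 10, and its calls enter only the ranges given below.

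The 4 other tubulin genes in the cytoskeleton list, Tuba1a, Tubb2a, Tubb3 and Tubb5, were also lower in dKO at day 20, where 19.2% of all genes were. Further tubulin genes were not counted. Tuba1a, the main alpha-tubulin of growing neurons, had 365 to 399 CPM in dKO females and 292 to 333 CPM in dKO males, against 468 to 497 CPM in WT females and 461 to 572 CPM in WT males, a log2 difference of -0.53 ± 0.06 (adjusted p = 7.50e-07). Tubb2a gave -0.36 ± 0.08 (163 to 228 CPM in dKO, 230 to 272 CPM in WT, adjusted p = 0.000827) and Tubb5 gave -0.32 ± 0.09 (187 to 244 CPM in dKO, 249 to 279 CPM in WT, adjusted p = 0.00529). The neuronal beta-tubulin Tubb3 gave -0.44 ± 0.11 (148 to 229 CPM in dKO, 224 to 294 CPM in WT, adjusted p = 0.00491). In Tuba1a, Tubb2a and Tubb5 the groups did not overlap, and in Tubb3 they did. Of all genes tested, 10.3% had every dKO library below every WT library at day 20. The day 10 log2 differences of the same genes were positive: 0.23 for Tuba1a (adjusted p = 0.0432), 0.34 for Tubb2a (adjusted p = 0.0252), 0.37 for Tubb3 (adjusted p = 0.0729) and 0.30 for Tubb5 (adjusted p = 0.0571). None of the 4 passed at day 10 without dKO male day 10 replicate 2, with 0.24 for Tuba1a (adjusted p = 0.246), 0.22 for Tubb2a (adjusted p = 0.329), 0.28 for Tubb3 (adjusted p = 0.450) and 0.30 for Tubb5 (adjusted p = 0.329), and 0.0666% of all genes did.

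**Figure D5:**
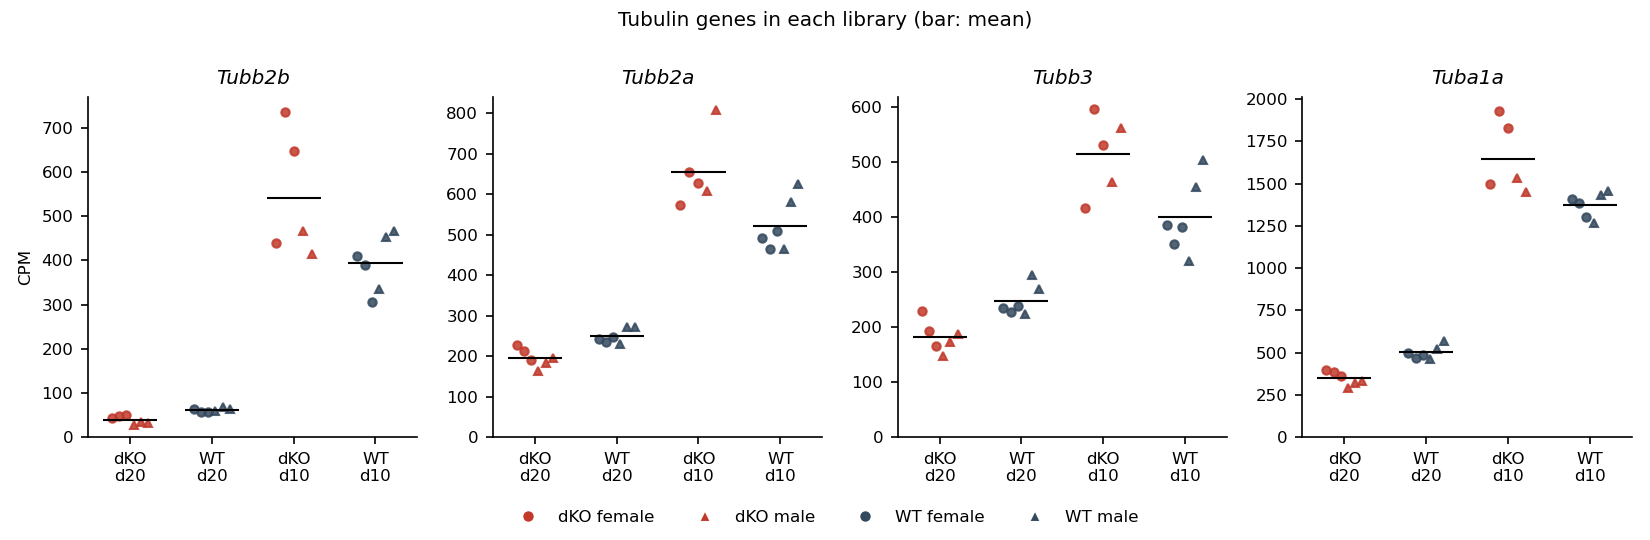
CPM of 4 tubulin genes in each library, by genotype and day, with circles for females, triangles for males and bars for means. At day 20 all dKO libraries are below all WT libraries for Tubb2b (27.9 to 51.1 against 56.6 to 67.3 CPM), Tubb2a and Tuba1a. The same held for 10.3% of all genes tested.

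The wider list of 36 genes of the immature neuron cytoskeleton and migration had 13 lower and 5 higher in dKO at day 20, 50% called against 38% of all genes (19.2% lower, 18.8% higher), with a median log2 difference of -0.10 against 0.00 over all genes. Its called members with the smallest p were Tuba1a, Dclk1 (-0.38 ± 0.05, adjusted p = 8.53e-06), a doublecortin-like kinase, Mex3c (-0.30 ± 0.05, adjusted p = 5.03e-05), a paralog of Mex3b, and Marcks (-0.33 ± 0.06, adjusted p = 0.000150), the paralog of Marcksl1. At day 10 the list had 9 higher and 0 lower, where 3.23% of all genes were higher, and 0 of either without dKO male day 10 replicate 2. In the difference between the days, 18 of 36 were lower and 2 higher, where 14.7% of all genes were lower and 13.6% higher, and without that library 19 were lower and 2 higher. Over time, 32 of the 36 fell in dKO and 33 in WT, with and without that library, where 31.2% of all genes fell in dKO and 24.9% in WT.

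Relatives of the members differed among themselves at day 20. Dclk2, related to Dcx by its doublecortin domains, was higher in dKO (0.34 ± 0.07, 135 to 186 CPM in dKO, 111 to 149 CPM in WT, adjusted p = 0.00105), while Dclk1 was lower. The third SoxC gene Sox12 had 11.6 to 15.8 CPM in dKO and 10.6 to 13.2 CPM in WT (0.21 ± 0.10, adjusted p = 0.0940). Nhlh2 (0.09), Neurod2 (0.31), Neurod4 (-0.01), Neurod6 (0.06), Mex3a (0.01) and Mex3d (-0.08) did not pass either.

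Of the 24 granule precursor and hedgehog genes, 3 were higher and 5 lower in dKO at day 20, a share of 33.3% called, near the 38% of all genes. Ccnd1, the cyclin that hedgehog signalling keeps high in granule precursors, had 9.33 to 22.05 CPM in dKO and 25.1 to 30.9 CPM in WT (-0.92 ± 0.10, adjusted p = 3.73e-07). Hhip, a hedgehog-binding inhibitor, had 20.6 to 36.1 CPM in dKO and 50.5 to 59.7 CPM in WT (-1.02 ± 0.12, adjusted p = 2.85e-06). The hedgehog transcription factor Gli2 was higher (0.70 ± 0.15, adjusted p = 0.000790) and Gli3, mainly a repressor, lower (-0.35 ± 0.08, adjusted p = 0.00250). The list median was 0.06, and without dKO male day 10 replicate 2 the counts were 7 higher and 6 lower. Of all genes, 4.99% were called between the genotypes at day 10. From day 10 to day 20, 31.2% of all genes fell and 30.4% rose in dKO, and 24.9% fell and 25.5% rose in WT. Of the 24 genes here, 0 were called at day 10. Over time 11 fell and 4 rose in dKO, and 15 fell and 3 rose in WT, while without that library 14 fell and 2 rose in dKO and 19 fell and 3 rose in WT.

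Of 22 neurogenesis transcription factors tested, 2 were higher and 2 lower in dKO at day 20, 18.2% called against 38% of all genes. Eomes, which marks unipolar brush cells in the cerebellum, had 9.10 to 14.1 CPM in dKO and 26.5 to 34.2 CPM in WT (-1.39 ± 0.28, adjusted p = 0.00103). All its dKO libraries lay below all WT libraries, as for 10.3% of all genes tested. Sox2, a factor of neural stem cells and glia, gave -0.29 ± 0.08 (adjusted p = 0.00686). Hes6, a bHLH factor that promotes neuronal differentiation, gave 0.46 ± 0.08 (adjusted p = 0.000125), and Myt1, a zinc-finger factor of newborn neurons, gave 0.34 ± 0.11 (adjusted p = 0.0166). Over time 15 of the 22 fell and 1 rose in dKO, where 31.2% of all genes fell and 30.4% rose. In WT 16 fell and 2 rose, where 24.9% of all genes fell and 25.5% rose. When 24 of the list were tested, without dKO male day 10 replicate 2, 16 fell and 1 rose in dKO and 16 fell and 2 rose in WT.

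Of 24 proliferation genes, 8 were lower and 0 higher in dKO at day 20, 33.3% called against 38% of all genes (19.2% lower). All 24 were lower at day 20 than at day 10 in both genotypes, with and without dKO male day 10 replicate 2, where 31.2% of all genes fell in dKO and 24.9% in WT. Mki67 had 0.527 to 1.16 CPM in dKO and 2.63 to 8.82 CPM in WT at day 20, a log2 difference of -2.67 ± 0.50 (adjusted p = 0.000594), and Top2a had 0.197 to 0.543 CPM in dKO and 1.48 to 4.65 CPM in WT (-2.76 ± 0.57, adjusted p = 0.00115). The markers of mature granule neurons moved the other way with age: 13 of 16 rose and 0 fell in dKO, and 9 rose and 2 fell in WT, where 30.4% of all genes rose in dKO and 25.5% in WT. Without that library 11 rose and 0 fell in dKO, and 10 rose and 2 fell in WT. Between the genotypes at day 20, 1 of these 16 was higher (Reln, 0.40 ± 0.13, adjusted p = 0.0183) and 1 lower (Kcnd2, -0.15 ± 0.05, adjusted p = 0.0276), with a list median of 0.01.

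Markers of other cells in the tissue differed at day 20 as well. In dKO 7 of 8 microglial, 7 of 9 endothelial and mural, and 7 of 10 choroid plexus and ependymal genes were lower, as were 6 of 14 astrocyte and radial glia and 4 of 12 oligodendrocyte precursor genes, where 19.2% of all genes were lower. Of the same lists, 3 genes were higher: Pdgfrb (0.18, endothelial and mural), Aldh1l1 (0.40, astrocyte and radial glia) and Pdgfra (0.34, oligodendrocyte precursor). Of 12 Purkinje genes 1 was higher and 0 lower, of 13 hindbrain genes 0 were called, and of 16 mature neuron genes 2 were lower. Of 12 forebrain genes 1 was higher. The summed CPM of the microglial list was 91.8 to 141 in dKO and 160 to 192 in WT, and within dKO it was 123 to 141 in females and 91.8 to 109 in males, the order of the Tubb2b levels. The part of cell makeup in the Tubb2b difference was not tested.

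The genes most like the members in pattern were taken as those with the smallest root mean square difference between their standardised profile and the mean standardised profile of the 10, among 16985 genes whose mean reached 1 CPM. Over all 23 libraries they were Mex3a (0.0999), a paralog of Mex3b, 2700081O15Rik (0.126), Insm1 (0.131), a zinc-finger factor of newborn neurons, Ppp1r14c (0.133) and Cdk4 (0.140), the kinase partner of D-type cyclins. Mex3a had 5.13 to 7.37 CPM in dKO and 4.15 to 7.85 CPM in WT at day 20, and 14.3 to 87.1 CPM in dKO and 39.7 to 68.6 CPM in WT at day 10. Among the members the value was 0.117 for Sox11 and 0.119 for Mex3b at the near end and 0.998 for Neurod1 at the far end. These profiles share libraries and are led by the change with day. Within the 12 libraries of day 20, where that change is absent, the smallest differences were far larger, from 0.654 for Gm44586 to 0.676 for Prmt8, with Gm37630, Zfp608 and Ank3 between, and the members themselves lay at 0.733 (Sox11) to 1.01 (Sox4) from their own mean.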

How the data were processed

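The authors deposited 1 table of counts per gene for each of 24 libraries (TruSeq Stranded mRNA, per the labels' protocols), made, as the submitters' processing notes list without roles, with STAR 2.5.2b, HTSeq and GRCm38.p5; the counting tool and the annotation are not stated there. The reverse-strand column was used, the forward column holding 5.22 to 7.46% as many counts in the 23 libraries used. No-feature reads were 41.7 to 47.5%, unmapped 7.65 to 11.04%, multimapping 4.77 to 5.94% and ambiguous 0.589 to 1.05% of reads, and stayed out of library sizes. GENCODE M21 gave symbols to 50462 of 50686 gene identifiers and left 224 unmatched. In 23 libraries 1 count was 0.0224 to 0.109 CPM.

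In R 4.3.3 and edgeR 4.0.16, genes kept by filterByExpr were scaled by TMM and fitted with 1 mean per genotype, sex and day (8 groups) by robust glmQLFit; 11 contrasts were tested by glmQLFTest, two-sided, with Benjamini-Hochberg adjustment over all genes tested, and called under 0.05. Simulated data with changed genes were used to check the fit. The library of 45964 counts was left out by the minimum of 1 M gene counts.

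The members and gene lists were chosen with earlier results of these data known. Named were all members in every contrast, up to 4 called genes per list by p at day 20, their closest relatives, and the 5 genes most like in pattern. Ttr, Gabra6, Hoxa5, Tubb5, Pdgfra and Pdgfrb were added after their values were seen. Some genes of the marker lists are not reported here and stayed out of the lists' sums and counts. The alternatives tried were RLE in place of TMM, all genes without a filter, genes averaging 1 CPM or more, the unstranded column, all 24 libraries, only the groups compared, DESeq2 1.42.0, limma-voom (limma 3.58.1), a prior count of 0.5 in place of 2 for the pattern search, and leaving out each library in turn. Figures were drawn with matplotlib 3.10.9.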

Additional observations from a re-analysis of the deposited data

Results flagged for a closer look

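Of 40 groups (10 genes in 4 groups of 5 or 6 libraries), 4 held a library further from the rest than Dixon's 95% critical value, of which chance gives about 1 in 20. Dcx in dKO male day 10 replicate 2 was 116 CPM, against 291 to 357 CPM in the other dKO libraries of day 10. Neurod1 in WT male day 20 replicate 2 was 144 CPM, against 196 to 219 CPM in the others. Atoh1 in WT female day 20 replicate 1 was 0.208 CPM, against 0 to 0.0561 CPM, and Nhlh1 in WT female day 20 replicate 3 was 0 CPM, against 0.198 to 0.281 CPM, all at a few counts per library. The effect of genotype on Tubb2b differed between the days, by -1.05 on the log2 scale.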

How the results depend on the processing

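No paired analysis was possible because the labels give no replicate numbers; the numbers used here only name the libraries of a group in listed order. The Tubb2b difference at day 20 passed the test under every setting tried, from -0.646 to -0.668 on the log2 scale apart from left-out libraries. When only the groups compared were fitted, members called were 3 at day 20 over both sexes, 2 in females, 2 in males and 1 for the difference between the sexes. Genes called in that setting were 6 at day 10 over both sexes, 10 in females, 0 in males, 4003 in day 20 females and 1182 for the sexes at day 20. Those at day 20 over both sexes and in males are not given here. In the fit of all groups they were 38% and 34.6% of all genes. DESeq2 called 1 member at day 10 over both sexes and 1 in females, with 2084 genes over both sexes, 734 in females, 566 in males and 340 for the sexes at day 20. Keeping genes with a mean of 1 CPM or more also gave 1 member at day 10 over both sexes and 1 in females. There the fit used for the results called 4.99% and 0.319% of all genes. With no filter, 308 genes were called at day 10 in females, 162 in males, 177 for the sexes at day 20 and 2 at day 10. The unstranded column gave 2 members in day 20 males, where the fit used for the results called 34.6% of all genes. It called 32 genes in day 10 females. The cause was not tested.

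Leaving out 1 library at a time gave 0 to 5 members and 15 to 4516 genes at day 10 over both sexes, 0 to 2 and 3 to 1277 in females, 0 to 8 and 2 to 4350 in males, and 0 to 8 and 0 to 1997 for the sexes. It gave 1 to 5 members for the difference between days, a contrast in which 28.3% of all genes were called with all 23 libraries. The range of all genes called in that contrast is not given here. For all genes it gave 1008 to 2700 in day 20 females and 0 to 150 for the sexes at day 20. The highest day 10 counts over both sexes, in males and for the sexes came without dKO male day 10 replicate 1, and the fewest genes over both sexes without dKO male day 10 replicate 2. Each of these fits left 1 library for dKO males at day 10, taken to vary like the others. In females the extremes came without dKO female day 10 replicate 1 (1277) and replicate 3 (3).

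Signs changed for values near 0 that had not passed the test. With limma-voom, Mex3b was 0.007731 for the difference between days and Neurod1 0.08463 between days in dKO. Mex3a at day 20 was -0.006113 with no filter, -0.01057 with the unstranded column and -0.001057 with limma-voom. With 1 library left out, day 10 differences ran over -1.277 to 0.3594 for Atoh1, -1.371 to 0.2189 for Igfbpl1, -0.6193 to 0.03632 for Dcx, -0.104 to 0.1222 for Sox4, -0.4973 to 0.229 for Sox11 and -0.3684 to 0.1028 for Mex3b, and in males -0.06306 to 0.1596 for Tubb2b. Differences between days ran over -0.04254 to 0.178 for Sox4, -0.328 to 0.3932 for Sox11, -0.2099 to 0.2557 for Mex3b and -0.1392 to 1.247 for Neurod1, and the dKO change of Neurod1 with day over -0.623 to 0.7852. At day 20 they ran over -0.08735 to 0.01039 for Marcksl1, -0.3183 to 0.1534 for Neurod4, -0.06801 to 0.1391 for Neurod6 and -0.0613 to 0.09043 for Mex3a. Depth limits Atoh1, Nhlh1 and Igfbpl1 at day 20. A prior count of 0.5 put Frem2 in place of Cdk4 and Mex3a in place of Ank3 among the most like genes.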
